A study of Mus musculus with 12 samples.

Results

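The genes described here are those that build ribosomes in the nucleolus, together with the subunits of RNA polymerase I. They were chosen by gene name: names that begin with Nop, Utp, Nol or Rrp and a digit, names that begin with Polr1, and Bop1, Dkc1, Nhp2, Gar1, Fbl, Ncl, Npm1, Rrs1, Wdr12 and Pes1. The rule found 49 of the 12208 genes in the count table. Expression was measured by 3′ mRNA sequencing in 4 lines of 393P, a mouse lung adenocarcinoma line labelled epithelial and non-metastatic. The control line was labelled GFP_Vector, and the others were labelled Zeb1_WT, Zeb1_deficient and Zeb1_mimetic. They are called the vector, WT, deficient and mimetic lines below. Zeb1 is a transcriptional repressor of epithelial genes, and from the series title the last pair of forms are read as ones that lack or mimic acetylation of the protein. How the forms were expressed is not stated in the sources used. All 12 libraries came from untreated cells in RPMI medium with serum, 3 libraries per line, labelled as biological replicates, whereas the series' own design text states 2 replicates. Each Zeb1 form is represented by 1 line, so a difference between forms and a difference between lines cannot be told apart, and each p-value rests on how far the libraries within a line spread.

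RNA polymerase I transcribes a single long precursor of most of the ribosomal RNAs in the nucleolus. Box C/D and box H/ACA particles, each with a core of proteins around a guide RNA, methylate that precursor or turn its uridines into pseudouridines. Large assemblies, the small-subunit processome and a series of large-subunit intermediates, fold it, cut it and add ribosomal proteins. Transcription of the genes for these factors is a known target of MYC, and output of the pathway is known to follow growth. The precursor, the mature ribosomal RNAs and the proteins were not measured here.

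Library totals were 33301106 to 39029599 counts in the vector line, 28402017 to 35773638 in the WT line, 31010854 to 32950740 in the deficient line and 24356697 to 27457818 in the mimetic line. The smallest count of any of the 49 genes in any library was 65, and each of them passed the filter on low counts. Zeb1 itself was at 31.3 ± 2.79 CPM (SD, n = 3) in the vector line, 244 ± 6.87 in the WT line, 484 ± 13.1 in the deficient line and 228 ± 12.2 in the mimetic line, where CPM is edgeR's per-library count unit after TMM scaling. The summed level of 5 epithelial markers (Cdh1, Krt8, Krt18, Krt19 and Cldn7) was 8235 to 9553 CPM in the vector line, 4109.8 to 4259.6 in the WT line, 6940.4 to 7024 in the deficient line and 5239.7 to 5389.9 in the mimetic line. Of 5 fibroblast markers only Pdgfra was listed, at no more than 1.06 CPM, and of 5 leukocyte markers only Cd68, at 2.12 to 8.43 CPM. The endothelial markers Pecam1 and Kdr summed to 0.29 to 1.01 CPM in the vector line, 0.736 to 1.14 in the WT line, 5.37 to 7.15 in the deficient line and 2.61 to 3.11 in the mimetic line. Ribosomal protein genes held 5.44 to 6.05% of counts in the vector line, 7.55 to 7.62% in the WT line, 6.2 to 6.54% in the deficient line and 7.01 to 7.15% in the mimetic line. Mitochondrial genes held 0.814 to 0.998%, 0.396 to 0.426%, 0.698 to 0.722% and 0.482 to 0.504% in the same order. These values moved with the lines, and their part in the differences below was not tested. In bulk RNA, fewer cells of one kind and less RNA per cell cannot be told apart.

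Against the vector line, more of the 49 genes were higher than lower in each of the 3 Zeb1 lines, by small amounts. A gene was called where edgeR's quasi-likelihood test over all 12027 genes tested gave a Benjamini-Hochberg adjusted p under 0.05. In the WT line 28 genes were called higher (57.1%), against 31% of all genes tested, and 10 were called lower (20.4%), against 33.6%. In the deficient line 20 were called higher (40.8%, all genes 28.4%) and 13 lower (26.5%, all genes 29.8%). In the mimetic line 27 were called higher (55.1%, all genes 28.6%) and 9 lower (18.4%, all genes 30.9%). The median log2 difference of the 49 genes was 0.19 in the WT line, 0.10 in the deficient line and 0.17 in the mimetic line, beside medians over all genes tested of -0.01, 0.00 and -0.00. The plot of cumulative distributions shows both sets of values. The 3 comparisons share the vector libraries, so they are not independent of each other. With library size alone as the scaling, the split over all genes tested in the mimetic line was 4334 higher and 3004 lower in place of 3438 and 3720, and that over the 49 genes was 32 and 8. Without WT replicate 2, 6 of the genes were called lower in the WT line in place of 10.

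**Figure D1:**
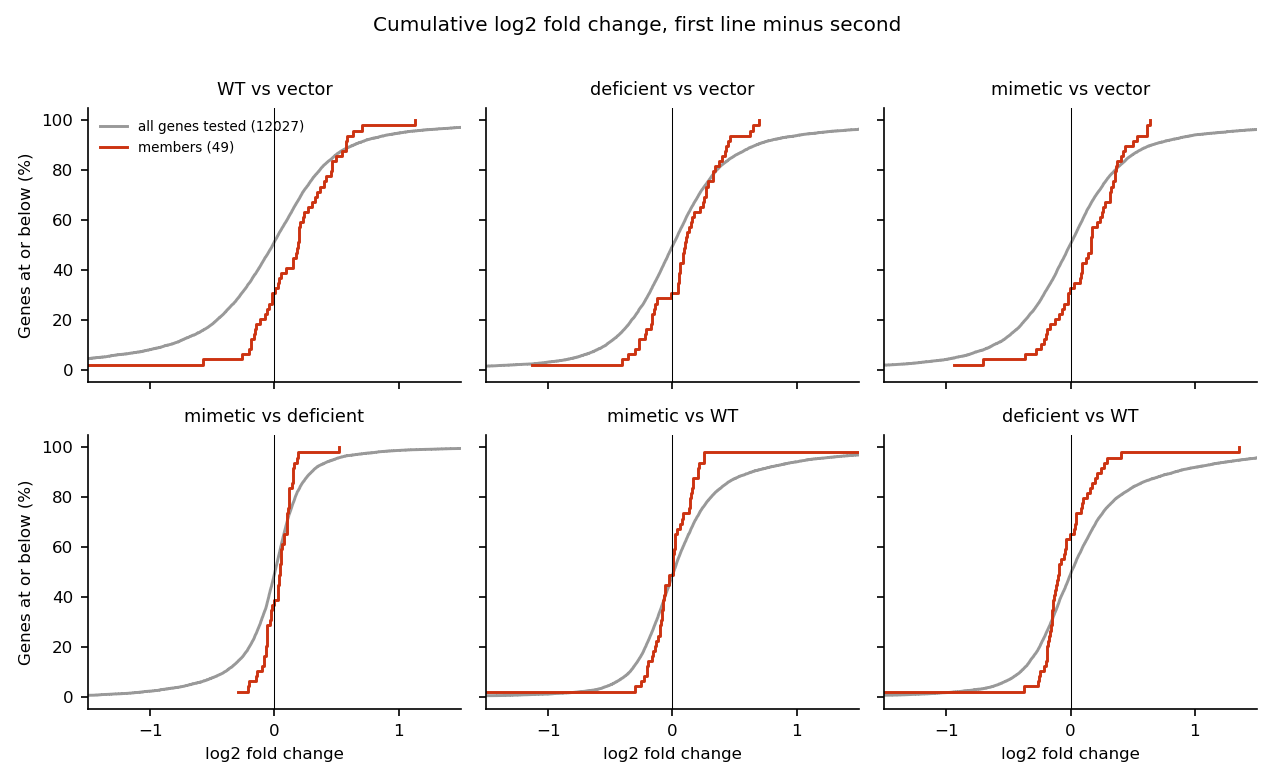
Cumulative share of genes (vertical axis) by log2 difference between lines (horizontal axis), for the 49 genes (members, red) and for all 12027 genes tested (grey), with the vector comparisons in the upper panels, those between Zeb1 lines in the lower ones, and the axis ending at 1.5 in either direction. In the upper panels the curve of the 49 genes lies to the right of that of all genes over its middle part, with medians of 0.19, 0.10 and 0.17 for the WT, deficient and mimetic lines.

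The sizes were modest. Leaving aside 4 genes that the name rule took in although they are not known as ribosome factors or whose role is less clear (Nol3, Nol4, Nol4l and Nol8), the log2 differences from the vector line ran from -0.57 to 0.70 in the WT line, from -0.35 to 0.70 in the deficient line and from -0.37 to 0.64 in the mimetic line. Of these 45 genes, 26 were called higher and 8 lower in the WT line, 20 and 11 in the deficient line, and 26 and 7 in the mimetic line. As shares, 57.8% were higher and 17.8% lower in the WT line, against 31% and 33.6% of all genes tested. The deficient line had 44.4% and 24.4% (all genes 28.4% and 29.8%), and the mimetic line 57.8% and 15.6% (all genes 28.6% and 30.9%). None of the 45 differed from the vector by 2-fold or more, and 3, 3 and 2 differed by 1.5-fold or more in the WT, deficient and mimetic lines. Any difference among the 4 lines was called for 45 of the 49 genes, against 80.9% of all genes tested. The exceptions were the processome genes Utp11l, Nol7 and Utp23 and the large-subunit gene Rrp1b.

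**Figure D2:**
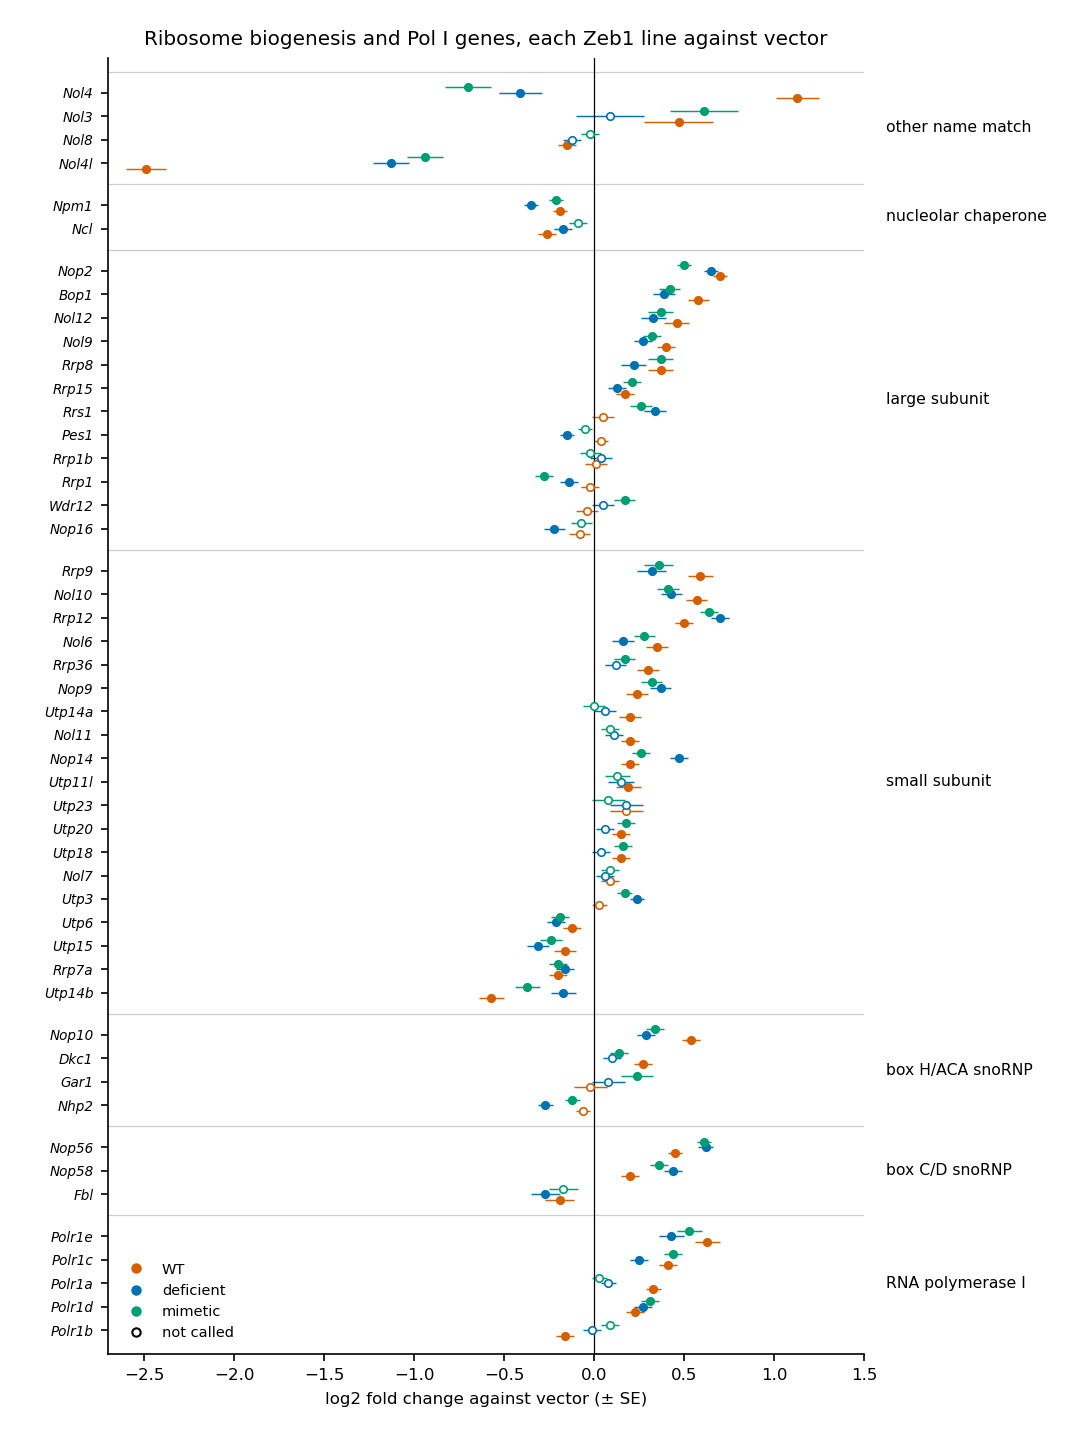
Log2 difference from the vector line with its standard error for each of the 49 genes (vertical axis, grouped by role), with points coloured by Zeb1 line, filled where called and open where not. Most polymerase, processome and large-subunit genes lie to the right of 0 and Npm1 and Ncl to the left, with Nol4l at -2.49, -1.13 and -0.94 the gene farthest to the left in the WT line.

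The summed level of all 49 genes moved little, and Npm1 and Ncl made up a large share of it. The sum was 8008 ± 34.9 CPM (SD, n = 3) in the vector line, 8150.0 ± 101 in the WT line, 7847 ± 71.8 in the deficient line and 8099 ± 171 in the mimetic line. Without Npm1 and Ncl the sum was 4418 ± 81.3 CPM in the vector line, 5034 ± 29.7 in the WT line, 4958 ± 60.9 in the deficient line and 4945 ± 55.5 in the mimetic line. The 3 vector libraries were below each of the 9 Zeb1 libraries on that sum. The sum of the 2 genes alone was 3589.7 ± 74.4 CPM in the vector line, above all the Zeb1 libraries, whose means were 3116, 2889 and 3154 in the WT, deficient and mimetic lines.

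Of the 5 RNA polymerase I subunits found by name, 4 were higher and 1 was lower in the WT line, and 3 were higher in the deficient line and 3 in the mimetic line. None was called lower in either of these lines by edgeR, with 0 at an unadjusted p under 0.05 and 0 called by DESeq2. In the WT line 80% of the 5 were higher and 20% lower, against 31% and 33.6% of all genes tested. The share higher was 60% in the deficient line (all genes 28.4%) and 60% in the mimetic line (all genes 28.6%). All genes tested were lower in 29.8% and 30.9% of cases in those lines. In the values that follow, the 3 numbers of a line are replicates 1, 2 and 3. Polr1e (chr4:45018583-45036565 in mm10) encodes a subunit specific to RNA polymerase I, the partner of Polr1g. Polr1e was at 22.2, 22.3 and 24.6 CPM in the vector line, 35.9, 35.0 and 36.1 in the WT line, 33.4, 30.7 and 29.1 in the deficient line and 33.4, 33.7 and 32.9 in the mimetic line. Its 3 vector libraries were the lowest of the 12 and did not overlap any other line. The log2 difference from the vector was 0.63 ± 0.07 (SE, adjusted p = 8.48e-08) in the WT line, 0.43 ± 0.07 (SE, adjusted p = 1.76e-05) in the deficient line and 0.53 ± 0.07 (SE, adjusted p = 1.21e-06) in the mimetic line. The last 500 bases of Polr1e overlap Fbxo10 on the opposite strand, and whether counting used strand is not stated in the sources used.

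Polr1c and Polr1d encode a pair of subunits that RNA polymerases I and III share. Polr1c was at 79.7, 75.6 and 85.2 CPM in the vector line, 109.6, 108 and 103 in the WT line, 100.1, 93.3 and 93.6 in the deficient line and 107, 105 and 113 in the mimetic line. Polr1d was at 67.4, 67.1 and 75.2 CPM in the vector line, 79.3, 82.1 and 84.3 in the WT line, 85.1, 85.8 and 82.0 in the deficient line and 86.3, 86.4 and 88.1 in the mimetic line. In both genes the vector libraries were below those of the 3 Zeb1 lines without overlap. The Polr1c difference was 0.41 ± 0.05 (SE, adjusted p = 6.8e-07) in the WT line, 0.25 ± 0.05 (SE, adjusted p = 0.0003) in the deficient line and 0.44 ± 0.05 (SE, adjusted p = 4.25e-07) in the mimetic line. For Polr1d it was 0.23 ± 0.05 (SE, adjusted p = 0.000597) in the WT line, 0.27 ± 0.05 (SE, adjusted p = 0.000137) in the deficient line and 0.31 ± 0.05 (SE, adjusted p = 2.49e-05) in the mimetic line.

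Polr1a, the largest catalytic subunit, differed in the WT line alone among the calls against the vector. Polr1a was at 168, 176 and 178 CPM in the vector line, 215, 221 and 218 in the WT line, 178, 183 and 191 in the deficient line and 172, 175 and 184 in the mimetic line. The WT libraries were the highest of the 12, and the other lines overlapped one another. Its difference from the vector was 0.33 ± 0.04 (SE, adjusted p = 9.59e-07) in the WT line, 0.08 ± 0.04 (SE, adjusted p = 0.1) in the deficient line and 0.03 ± 0.04 (SE, adjusted p = 0.625) in the mimetic line. The WT line was also above the mimetic line directly, with a mimetic minus WT difference of -0.30 ± 0.04 (SE, adjusted p = 8.01e-06), and above the deficient line, with a deficient minus WT difference of -0.25 ± 0.04 (SE, adjusted p = 5.93e-05). With library size alone as the scaling, Polr1a was also called higher than the vector in the deficient line (0.13) and in the mimetic line (0.10).

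Polr1b, the second of the catalytic pair, went the other way in the WT line. Polr1b was at 90.0, 88.8 and 90.9 CPM in the vector line, 80.9, 79.8 and 79.9 in the WT line, 92.0, 93.1 and 82.6 in the deficient line and 92.8, 96.3 and 97.8 in the mimetic line. The WT libraries were the lowest of the 12, without overlap. Its difference from the vector was -0.16 ± 0.05 (SE, adjusted p = 0.00612) in the WT line, -0.01 ± 0.05 (SE, adjusted p = 0.871) in the deficient line and 0.09 ± 0.05 (SE, adjusted p = 0.124) in the mimetic line. The catalytic pair thus differed from the vector in opposite directions in the WT line, and neither by 1.5-fold.

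Another 3 subunits of RNA polymerase I are listed under older names that the rule did not match, and they were added after their values were seen. Twistnb, the stalk subunit now named Polr1f, was at 37.5 ± 0.71 CPM in the vector line and differed from it by 0.81, 0.60 and 0.63 on the log2 scale in the WT, deficient and mimetic lines, with adjusted p-values of 2.35e-10, 3.74e-08, 2.07e-08. Cd3eap, now Polr1g, differed by 0.21, 0.31 and 0.32 (adjusted p = 0.00528, 0.00027 and 0.000198). Znrd1, now Polr1h, differed by 0.49, 0.23 and 0.47 (adjusted p = 5.24e-06, 0.00962 and 1.25e-05), and its call in the deficient line was lost on leaving out deficient replicate 1 (adjusted p = 0.0525). All 3 were called higher in each Zeb1 line in the full fit.

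The box C/D particle, which methylates ribosomal RNA, has a core in which Nop56 and Nop58 form a pair and fibrillarin (Fbl) is the methyltransferase. Nop56 and Nop58 were higher than the vector in each of the Zeb1 lines, whereas Fbl was lower in the WT and deficient lines. Nop56 lies at chr2:130274430-130279313. Nop56 was at 294, 279.5 and 289 CPM in the vector line, 388, 397 and 396 in the WT line, 449, 452 and 427 in the deficient line and 442, 442 and 438 in the mimetic line. The vector libraries were the lowest, the WT libraries came next, and the deficient and mimetic libraries overlapped at the top. The difference from the vector was 0.45 ± 0.04 (SE, adjusted p = 1.71e-09) in the WT line, 0.62 ± 0.04 (SE, adjusted p = 2.03e-11) in the deficient line and 0.61 ± 0.04 (SE, adjusted p = 1.86e-11) in the mimetic line. The 3′ end of Nop56 overlaps Idh3b on the opposite strand.

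Nop58 (chr1:59684971-59719044) had the same order of lines. Nop58 was at 263, 267 and 250.4 CPM in the vector line, 285, 314 and 295 in the WT line, 363, 371 and 327 in the deficient line and 335, 349 and 315 in the mimetic line. No vector library overlapped another line, and the deficient and mimetic libraries overlapped each other. The difference was 0.20 ± 0.05 (SE, adjusted p = 0.00229) in the WT line, 0.44 ± 0.05 (SE, adjusted p = 3.59e-07) in the deficient line and 0.36 ± 0.05 (SE, adjusted p = 5.89e-06) in the mimetic line.

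Fbl was at 49.7, 45.4 and 51.7 CPM in the vector line, 46.2, 40.0 and 42.6 in the WT line, 38.1, 39.6 and 44.4 in the deficient line and 40.8, 41.8 and 47.9 in the mimetic line. The vector and WT libraries overlapped, as did those of the Zeb1 lines among themselves, while all deficient libraries lay below all vector libraries. The difference of Fbl was -0.19 ± 0.08 (SE, adjusted p = 0.0345) in the WT line, -0.27 ± 0.08 (SE, adjusted p = 0.00529) in the deficient line and -0.17 ± 0.08 (SE, adjusted p = 0.0653) in the mimetic line. The call in the WT line was lost on leaving out vector replicate 1, vector replicate 3, WT replicate 2 or WT replicate 3 (adjusted p = 0.0894, 0.114, 0.161 and 0.0793), and with library size alone as the scaling (adjusted p = 0.0531), and the mimetic value, not called in the full fit, passed the threshold with the replicate number as a block and on leaving out vector replicate 2 or mimetic replicate 3. The summed CPM of the 3 core proteins was 597 ± 9.1 in the vector line, 735 ± 15.8 in the WT line, 837 ± 34 in the deficient line and 817 ± 16.1 in the mimetic line, a sum set by Nop56 and Nop58.

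The box H/ACA particle turns uridines of ribosomal RNA into pseudouridines and has 4 core proteins, dyskerin (Dkc1, the enzyme), Nop10, Nhp2 and Gar1. Nop10 was higher than the vector in each Zeb1 line and Nhp2 was lower in the deficient and mimetic lines. Nop10 lies at chr2:112261926-112263269. Nop10 was at 80.7, 74.5 and 84.4 CPM in the vector line, 112, 120.5 and 116 in the WT line, 100.2, 101 and 91.4 in the deficient line and 100.3, 104 and 99.1 in the mimetic line. The vector libraries were the lowest and the WT libraries the highest, with no overlap, and the deficient and mimetic libraries overlapped between them. Its difference from the vector was 0.54 ± 0.05 (SE, adjusted p = 2.03e-08) in the WT line, 0.29 ± 0.05 (SE, adjusted p = 0.000107) in the deficient line and 0.34 ± 0.05 (SE, adjusted p = 1.6e-05) in the mimetic line.

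Nhp2 was at 203, 189 and 214 CPM in the vector line, 196, 189 and 196 in the WT line, 168, 165 and 168 in the deficient line and 189.8, 183 and 183 in the mimetic line. The deficient libraries were below those of every other line, and the vector and WT libraries overlapped. The Nhp2 difference was -0.06 ± 0.04 (SE, adjusted p = 0.219) in the WT line, -0.27 ± 0.04 (SE, adjusted p = 2.32e-05) in the deficient line and -0.12 ± 0.04 (SE, adjusted p = 0.0224) in the mimetic line. The call in the mimetic line was lost on leaving out vector replicate 1, vector replicate 3, mimetic replicate 2 or mimetic replicate 3 (adjusted p = 0.0543, 0.122, 0.0691 and 0.0655), and with library size alone as the scaling and with only the 2 lines compared in the fit (adjusted p = 0.349 and 0.074). The last 500 bases of Nhp2 overlap Rmnd5b on the opposite strand.

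Dkc1 was at 185, 205 and 193 CPM in the vector line, 239, 230.0 and 236 in the WT line, 211, 212 and 202 in the deficient line and 227, 212 and 204 in the mimetic line. The WT libraries of this gene were above all others, and the vector libraries overlapped those of the deficient and mimetic lines. The Dkc1 difference was 0.27 ± 0.05 (SE, adjusted p = 3.44e-05) in the WT line, 0.10 ± 0.05 (SE, adjusted p = 0.0759) in the deficient line and 0.14 ± 0.05 (SE, adjusted p = 0.0126) in the mimetic line. The mimetic call was lost on leaving out vector replicate 1 or mimetic replicate 1 (adjusted p = 0.0811 and 0.0988). The deficient line was called higher with library size alone as the scaling (0.14) and with the filter of 5 CPM (0.12). The 3′ end of Dkc1 overlaps Mpp1 on the opposite strand. Gar1 was called in the mimetic line only, at 0.24 ± 0.09 (SE, adjusted p = 0.0258), and that call was lost on leaving out vector replicate 2, mimetic replicate 1 or mimetic replicate 2 (adjusted p = 0.0595, 0.0507 and 0.165).

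**Figure D3:**
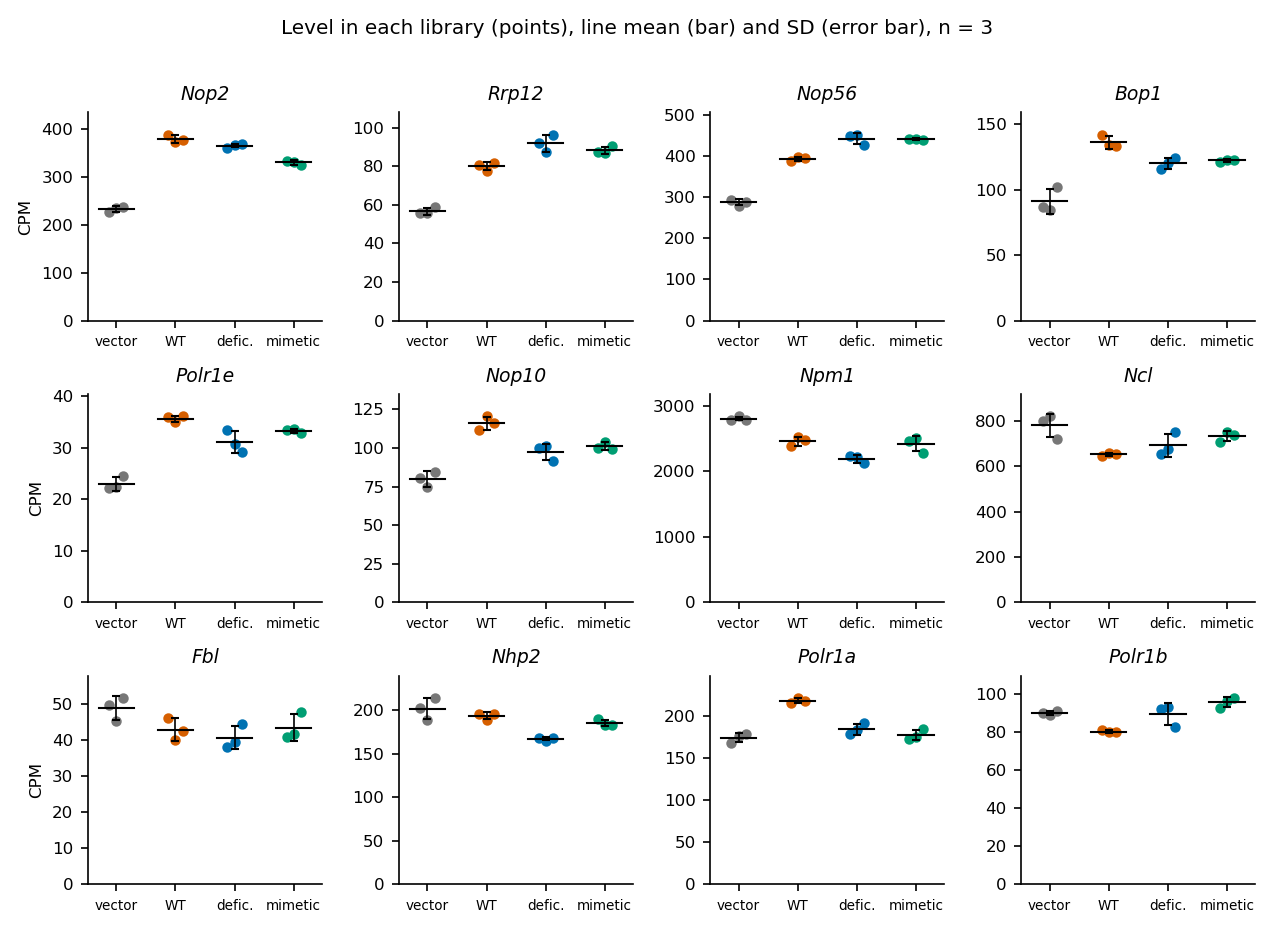
CPM of 12 of the genes in each of the 12 libraries (points) with the mean (horizontal line) and SD (error bar) of each line, 1 panel per gene, lines on the horizontal axis and vertical axes that differ between panels. The vector libraries are the lowest in Nop2, Rrp12, Nop56, Bop1, Polr1e and Nop10 and the highest in Npm1, while Polr1a is highest and Polr1b lowest in the WT line.

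The small-subunit processome is the assembly on the 5′ part of the precursor that makes the first cuts toward the small subunit. Of its 19 genes, 12 were higher and 4 lower in the WT line, 7 and 4 in the deficient line, and 10 and 4 in the mimetic line, with medians of 0.19, 0.12 and 0.16. In the WT line 63.2% were higher and 21.1% lower, against 31% and 33.6% of all genes tested. The deficient line had 36.8% and 21.1% (all genes 28.4% and 29.8%), and the mimetic line 52.6% and 21.1% (all genes 28.6% and 30.9%). Rrp12 (chr19:41862851-41896173), which acts in the export of precursor subunits, was the furthest above the vector in the deficient and mimetic lines. Rrp12 was at 55.6, 55.9 and 58.8 CPM in the vector line, 80.6, 77.9 and 81.9 in the WT line, 92.1, 87.4 and 96.5 in the deficient line and 87.6, 87.2 and 90.4 in the mimetic line. Vector libraries came lowest, WT libraries followed, and the deficient and mimetic libraries overlapped at the top. Its difference from the vector was 0.50 ± 0.05 (SE, adjusted p = 2.81e-08) in the WT line, 0.70 ± 0.05 (SE, adjusted p = 2.47e-10) in the deficient line and 0.64 ± 0.05 (SE, adjusted p = 8.45e-10) in the mimetic line.

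Nol10 (chr12:17348458-17430095) and Nop14 (chr5:34638536-34660148) are processome components. Nol10 was at 46.4, 45.4 and 42.2 CPM in the vector line, 63.3, 68.7 and 67.3 in the WT line, 61.4, 58.7 and 59.8 in the deficient line and 55.4, 63.0 and 59.4 in the mimetic line. Nop14 was at 111, 118 and 121 CPM in the vector line, 129.6, 140.1 and 131 in the WT line, 168, 167 and 149 in the deficient line and 144, 139.8 and 134 in the mimetic line. Both had vector libraries below those of each Zeb1 line. In Nol10 the WT line was highest, and in Nop14 the deficient line was. The Nol10 difference was 0.57 ± 0.06 (SE, adjusted p = 4.13e-08) in the WT line, 0.43 ± 0.06 (SE, adjusted p = 3.57e-06) in the deficient line and 0.41 ± 0.06 (SE, adjusted p = 6.09e-06) in the mimetic line. That of Nop14 was 0.20 ± 0.05 (SE, adjusted p = 0.00291) in the WT line, 0.47 ± 0.05 (SE, adjusted p = 2.26e-07) in the deficient line and 0.26 ± 0.05 (SE, adjusted p = 0.000326) in the mimetic line.

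Rrp9, which binds a box C/D RNA of the processome, was the furthest above the vector among processome genes in the WT line. Its differences in the WT, deficient and mimetic lines were 0.59, 0.32 and 0.36, and all were called. Nop9 was called higher in each line as well (0.24, 0.37 and 0.32). Nol6 was called higher in the WT line (0.35) and the mimetic line (0.28), and its call in the deficient line (0.16) was lost on leaving out vector replicate 1, vector replicate 3, deficient replicate 2 or deficient replicate 3 (adjusted p = 0.0734, 0.0998, 0.0601 and 0.254), and with only the 2 lines compared in the fit (adjusted p = 0.0992). Rrp36, which takes part in early cuts of the precursor, was called higher in the WT line (0.30). It was also called in the mimetic line (0.17), a call lost on leaving out vector replicate 1, vector replicate 2 or mimetic replicate 1 (adjusted p = 0.0579, 0.0674 and 0.0721). Nol11 (0.20) was called higher in the WT line and in no other in the full fit, and Utp3 was called in the deficient (0.24) and mimetic (0.17) lines.

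Other processome genes were lower than the vector. Rrp7a differed by -0.20, -0.16 and -0.20 in the WT, deficient and mimetic lines, and was called in each. Utp15, one of the t-UTP proteins that link the processome to transcription of the precursor, differed by -0.16, -0.31 and -0.24, and its WT call was lost on leaving out vector replicate 2, WT replicate 2 or WT replicate 3 (adjusted p = 0.0828, 0.0729 and 0.0948). Utp6 differed by -0.12, -0.21 and -0.19, and its WT call was lost on leaving out vector replicate 2, vector replicate 3, WT replicate 1, WT replicate 2 or WT replicate 3 (adjusted p = 0.0953, 0.127, 0.186, 0.0765 and 0.0801), and with RLE size factors, with library size alone as the scaling, with no filter and with DESeq2 (adjusted p = 0.0793, 0.0848, 0.0518 and 0.0879).

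The processome gene Utp14a and its retrogene copy Utp14b, genes of related sequence on chromosomes X and 1, differed from the vector in opposite directions in the WT line. Utp14b was at 93.3, 94.2 and 80.5 CPM in the vector line, 55.0, 67.0 and 57.8 in the WT line, 80.1, 78.3 and 80.1 in the deficient line and 63.9, 71.8 and 71.6 in the mimetic line. The vector libraries were the highest and the deficient libraries next, and the WT and mimetic libraries overlapped below them. The Utp14b difference from the vector was -0.57 ± 0.07 (SE, adjusted p = 5.81e-07) in the WT line, -0.17 ± 0.07 (SE, adjusted p = 0.0472) in the deficient line and -0.37 ± 0.07 (SE, adjusted p = 0.000152) in the mimetic line. The call in the deficient line was lost on leaving out vector replicate 1, vector replicate 2, deficient replicate 1, deficient replicate 2 or deficient replicate 3 (adjusted p = 0.165, 0.161, 0.0777, 0.114 and 0.0675), and with library size alone as the scaling and with a filter of 5 CPM in 3 libraries (adjusted p = 0.146 and 0.0882). Utp14a was at 58.1, 58.6 and 61.8 CPM in the vector line, 64.6, 68.7 and 71.7 in the WT line, 68.6, 59.7 and 57.7 in the deficient line and 57.7, 61.4 and 59.0 in the mimetic line. The Utp14a difference was 0.20 ± 0.06 (SE, adjusted p = 0.00887) in the WT line, 0.06 ± 0.06 (SE, adjusted p = 0.427) in the deficient line and -0.00 ± 0.06 (SE, adjusted p = 0.972) in the mimetic line, so that only the WT line was called. Reads that match both copies can be split between them by the counting, which is not described in the sources used.

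The remaining processome genes changed little. Utp18 was called higher in the WT line (0.15), a call lost on leaving out WT replicate 3 (adjusted p = 0.086), and in the mimetic line (0.16). Utp20 was called in the WT line (0.15), a call lost on leaving out vector replicate 3, WT replicate 1 or WT replicate 2 (adjusted p = 0.116, 0.0556 and 0.0565). It was called in the mimetic line too (0.18), a call lost on leaving out vector replicate 3 (adjusted p = 0.0557). Utp11l was called in the WT line (0.19), a call lost on leaving out vector replicate 1 or WT replicate 2 (adjusted p = 0.145 and 0.115). Nol7 (0.09, 0.06 and 0.09) and Utp23 (0.18, 0.18 and 0.08) passed in no line in the full fit.

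Among the 12 genes for assembly of the large subunit, 6 were higher and 0 lower than the vector in the WT line, 7 and 3 in the deficient line, and 8 and 1 in the mimetic line. As shares, 50% were higher and 0% lower in the WT line, against 31% and 33.6% of all genes tested. The deficient line had 58.3% and 25% (all genes 28.4% and 29.8%), and the mimetic line 66.7% and 8.33% (all genes 28.6% and 30.9%). The 0 lower genes in the WT line were also 0 at an unadjusted p under 0.05 in edgeR and 0 by DESeq2. Nop2 (chr6:125131909-125144753), a cytosine methyltransferase of the large ribosomal RNA and a known marker of proliferating nucleoli, was the highest above the vector of these genes in the WT line. Nop2 was at 226, 235 and 238 CPM in the vector line, 388, 372 and 376 in the WT line, 361, 367 and 368 in the deficient line and 333, 332 and 325 in the mimetic line. Levels were lowest in the vector libraries and next in the mimetic libraries, below the WT and deficient libraries, with no overlap between lines. The difference was 0.70 ± 0.04 (SE, adjusted p = 1.4e-12) in the WT line, 0.65 ± 0.04 (SE, adjusted p = 9.35e-12) in the deficient line and 0.50 ± 0.04 (SE, adjusted p = 4.36e-10) in the mimetic line.

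Bop1, Pes1 and Wdr12 form the PeBoW complex, which acts on the large-subunit precursor, and they did not move as 1 unit. Bop1 was at 87.1, 84.3 and 102 CPM in the vector line, 142, 134 and 133 in the WT line, 116, 120.4 and 124 in the deficient line and 121, 123 and 123 in the mimetic line. In Bop1 the vector libraries were below all others and the WT libraries above all others. Its difference was 0.58 ± 0.06 (SE, adjusted p = 2.48e-08) in the WT line, 0.39 ± 0.06 (SE, adjusted p = 6.71e-06) in the deficient line and 0.42 ± 0.06 (SE, adjusted p = 2.76e-06) in the mimetic line. Pes1 was called only in the deficient line, where it was lower (-0.15 ± 0.04 SE, adjusted p = 0.00571), and differed by 0.04 and -0.05 in the WT and mimetic lines. Wdr12 was called only in the mimetic line, where it was higher (0.17 ± 0.06 SE, adjusted p = 0.0142), and this call was lost on leaving out vector replicate 1 or mimetic replicate 2 (adjusted p = 0.0614 and 0.0513). The 3′ end of Bop1 overlaps Mroh1 on the opposite strand.

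Nol9 (chr4:152039321-152061494) is a polynucleotide kinase that acts on precursor ends of the large-subunit RNAs. Nol9 was at 63.1, 58.5 and 61.2 CPM in the vector line, 80.7, 82.6 and 77.1 in the WT line, 70.7, 74.8 and 75.1 in the deficient line and 75.3, 75.2 and 77.8 in the mimetic line. The vector libraries were the lowest of the 12 and the WT and mimetic libraries overlapped. The Nol9 difference was 0.40 ± 0.05 (SE, adjusted p = 7.18e-07) in the WT line, 0.27 ± 0.05 (SE, adjusted p = 9.84e-05) in the deficient line and 0.32 ± 0.05 (SE, adjusted p = 1.43e-05) in the mimetic line. Rrp8, an adenine methyltransferase of the large ribosomal RNA, was called higher in each line (0.37, 0.22 and 0.37), as was Nol12 (0.46, 0.33 and 0.37). Rrs1, which helps place an early particle of ribosomal RNA and protein in the large subunit, was called higher in the deficient (0.34) and mimetic (0.26) lines and differed by 0.05 in the WT line. Rrp15 was called higher in each line (0.17, 0.13 and 0.21), but its call in the deficient line was lost on leaving out vector replicate 1, vector replicate 2 or deficient replicate 1 (adjusted p = 0.0957, 0.177 and 0.146), and with only the 2 lines compared in the fit (adjusted p = 0.0881).

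Rrp1 and Nop16 were lower. Rrp1 was called in the mimetic line (-0.28 ± 0.05 SE, adjusted p = 3.51e-05) and in the deficient line (-0.14 ± 0.05 SE, adjusted p = 0.015), the second lost on leaving out vector replicate 3 or deficient replicate 2 (adjusted p = 0.102 and 0.0575), and with library size alone as the scaling (adjusted p = 0.0805). Nop16 was called lower in the deficient line (-0.22 ± 0.06 SE, adjusted p = 0.00329). Rrp1b, a relative of Rrp1, differed by 0.01, 0.04 and -0.02 in the WT, deficient and mimetic lines, and none of these was called.

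Nucleophosmin (Npm1, chr11:33152287-33163206) and nucleolin (Ncl, chr1:86344719-86359400) are abundant nucleolar proteins that bind ribosomal RNA and proteins during assembly, and both were lower than the vector in the WT and deficient lines, Npm1 also in the mimetic line. Npm1 was at 2794, 2842 and 2791 CPM in the vector line, 2386, 2523 and 2483 in the WT line, 2243, 2221 and 2127 in the deficient line and 2470.3, 2506 and 2289 in the mimetic line. The vector libraries were above all 9 Zeb1 libraries, and the deficient libraries were below all others. The Npm1 difference was -0.19 ± 0.04 (SE, adjusted p = 0.000503) in the WT line, -0.35 ± 0.04 (SE, adjusted p = 3.94e-07) in the deficient line and -0.21 ± 0.04 (SE, adjusted p = 0.000173) in the mimetic line. The mouse genome holds processed copies of Npm1 with near-identical sequence, and how reads shared with them were counted is not stated in the sources used.

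Ncl was at 799.9, 819.6 and 722 CPM in the vector line, 645, 659 and 654 in the WT line, 654, 674 and 749 in the deficient line and 708, 749.9 and 739 in the mimetic line. The WT libraries were all below the vector libraries, while the deficient and mimetic libraries overlapped them. The Ncl difference was -0.26 ± 0.05 (SE, adjusted p = 0.000179) in the WT line, -0.17 ± 0.05 (SE, adjusted p = 0.00677) in the deficient line and -0.09 ± 0.05 (SE, adjusted p = 0.131) in the mimetic line. These 2 genes had mean levels over the 12 libraries of 2473 and 714 CPM, the highest of the 49. A 3′ method gives about 1 tag per transcript, so CPM here was not divided by length. The median of the mean levels was 74.5 CPM over the 49 genes and 32.8 CPM over all genes tested.

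The 4 other name matches included the widest differences. Nol4l, a gene named for its similarity to Nol4, was lower in every Zeb1 line. Nol4l was at 45.0, 50.1 and 38.1 CPM in the vector line, 7.59, 7.81 and 8.37 in the WT line, 19.7, 20.8 and 20.3 in the deficient line and 23.2, 19.9 and 26.5 in the mimetic line. The WT libraries were the lowest, the deficient and mimetic libraries overlapped, and the vector libraries were the highest. Its difference from the vector was -2.49 ± 0.11 (SE, adjusted p = 4.99e-14) in the WT line, -1.13 ± 0.10 (SE, adjusted p = 5.53e-09) in the deficient line and -0.94 ± 0.10 (SE, adjusted p = 7.53e-08) in the mimetic line.

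Nol4, a nuclear protein gene not known as a ribosome factor, was higher in the WT line and lower in the others. Nol4 was at 7.68, 7.56 and 6.81 CPM in the vector line, 14.8, 15.9 and 17.5 in the WT line, 4.76, 5.81 and 6.06 in the deficient line and 4.11, 4.29 and 5.10 in the mimetic line. The WT libraries were above the vector libraries, and the deficient and mimetic libraries were below them. The Nol4 difference was 1.13 ± 0.12 (SE, adjusted p = 3.63e-08) in the WT line, -0.41 ± 0.12 (SE, adjusted p = 0.00829) in the deficient line and -0.70 ± 0.13 (SE, adjusted p = 9.88e-05) in the mimetic line. The call in the deficient line was lost on leaving out deficient replicate 1 (adjusted p = 0.0576).

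Nol3 encodes an inhibitor of apoptosis with a CARD domain rather than a ribosome factor, and it had the lowest level of the 49 genes. Nol3 was at 2.24, 2.00 and 2.69 CPM in the vector line, 2.77, 2.91 and 3.95 in the WT line, 2.26, 2.58 and 2.57 in the deficient line and 3.51, 3.40 and 3.72 in the mimetic line. The vector and deficient libraries overlapped, and the mimetic libraries were above both. Its difference was 0.47 ± 0.19 (SE, adjusted p = 0.0354) in the WT line, 0.09 ± 0.19 (SE, adjusted p = 0.708) in the deficient line and 0.61 ± 0.19 (SE, adjusted p = 0.00841) in the mimetic line. The WT call was lost on leaving out vector replicate 1, vector replicate 2 or WT replicate 3 (adjusted p = 0.0827, 0.129 and 0.207), and with only the 2 lines compared in the fit (adjusted p = 0.0622). Nol8, a nucleolar protein gene, was called lower in the WT line (-0.15 ± 0.05 SE, adjusted p = 0.0194), and that call was lost on leaving out vector replicate 1, vector replicate 2, WT replicate 1 or WT replicate 2 (adjusted p = 0.0824, 0.0578, 0.0801 and 0.0825).

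The mimetic and deficient lines were compared in a direct test, in which 4 of 49 were higher and 4 lower in the mimetic line, 16.3% in all, against 27.4% of all genes tested in either direction, 12.6% higher and 14.9% lower. The median difference was 0.04, beside 0.00 over all genes tested. Nop14 and Nop2 were lower in the mimetic line, with mimetic minus deficient differences of -0.21 ± 0.05 (SE, adjusted p = 0.00503) and -0.15 ± 0.04 (SE, adjusted p = 0.00593), and these 2 calls held when any 1 library was left out. The other called genes were Polr1c (0.18), Nhp2 (0.15), Npm1 (0.14) and Nol3 (0.52), higher, and Rrp1 (-0.14) and Utp14b (-0.20), lower, each lost when 1 or more single libraries were left out. With library size alone as the scaling, 1982 of all genes tested were higher and 1509 lower in place of 1510 and 1789, and of the 49 genes 8 and 2. The count of higher genes was 1 without deficient replicate 2 or mimetic replicate 1, and 2 without mimetic replicate 2 or 3. The count of lower genes was 2 without deficient replicate 2 or mimetic replicate 1.

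Between the mimetic and WT lines, 11 genes were higher in the mimetic line (22.4%), against 23.1% of all genes tested, and 10 were lower (20.4%), against 21.8%, 42.9% in either direction against 44.9%, with a median of 0.00, beside 0.01 over all genes tested. Of the 21 calls, 9 held when any 1 library was left out. Those were Polr1b (0.25), Nop56 (0.16), Rrs1 (0.21) and Nol4l (1.55), higher in the mimetic line, and Polr1a (-0.30), Nop10 (-0.20), Nop2 (-0.20), Rrp1 (-0.26) and Nol4 (-1.83), lower. With library size alone as the scaling, 3506 of all genes tested were higher and 1980 lower in place of 2780 and 2618, and of the 49 genes 13 and 5. The count of higher genes was 5 without WT replicate 1 and 6 without mimetic replicate 2. The count of lower genes was 6 without WT replicate 3.

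Between the deficient and WT lines, 27 of the 49 genes were called in either direction (55.1%), near the 53.8% of all genes tested. In the deficient line 9 genes were higher (18.4%, all genes 27.5%) and 18 lower (36.7%, all genes 26.3%), and the median was -0.10, beside 0.01 over all genes tested. Of these 27 calls, 18 held when any 1 library was left out. The box C/D pair Nop56 (0.17) and Nop58 (0.25) were higher, as were Rrp12 (0.20), Nop14 (0.27), Utp3 (0.21), Utp14b (0.41), Rrs1 (0.29) and Nol4l (1.36). The box H/ACA genes Nop10 (-0.25), Nhp2 (-0.21) and Dkc1 (-0.17) were lower, as were Polr1a (-0.25), Rrp9 (-0.26), Rrp36 (-0.19), Pes1 (-0.19), Bop1 (-0.18), Npm1 (-0.17) and Nol4 (-1.54). Summed CPM of the box C/D core proteins was 735 ± 15.8 in the WT line and 837 ± 34 in the deficient line, while that of the box H/ACA core proteins was 570.1 ± 7.63 and 500.1 ± 8.57. The libraries of the 2 lines did not overlap on either sum. In the vector line the box C/D sum was 597 ± 9.1 and the box H/ACA sum 502 ± 13, the latter near that of the deficient line. The core genes Fbl (-0.08) and Gar1 (0.10) were not called between the deficient and WT lines. Without deficient replicate 2, the count of lower genes was 11. Scaling by library size alone gave 10 higher and 13 lower of the 49 genes. Over all genes tested it gave 3597 and 2793 in place of 3311 and 3159. The filter of 5 CPM in 3 libraries also gave 13 lower genes.

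**Figure D4:**
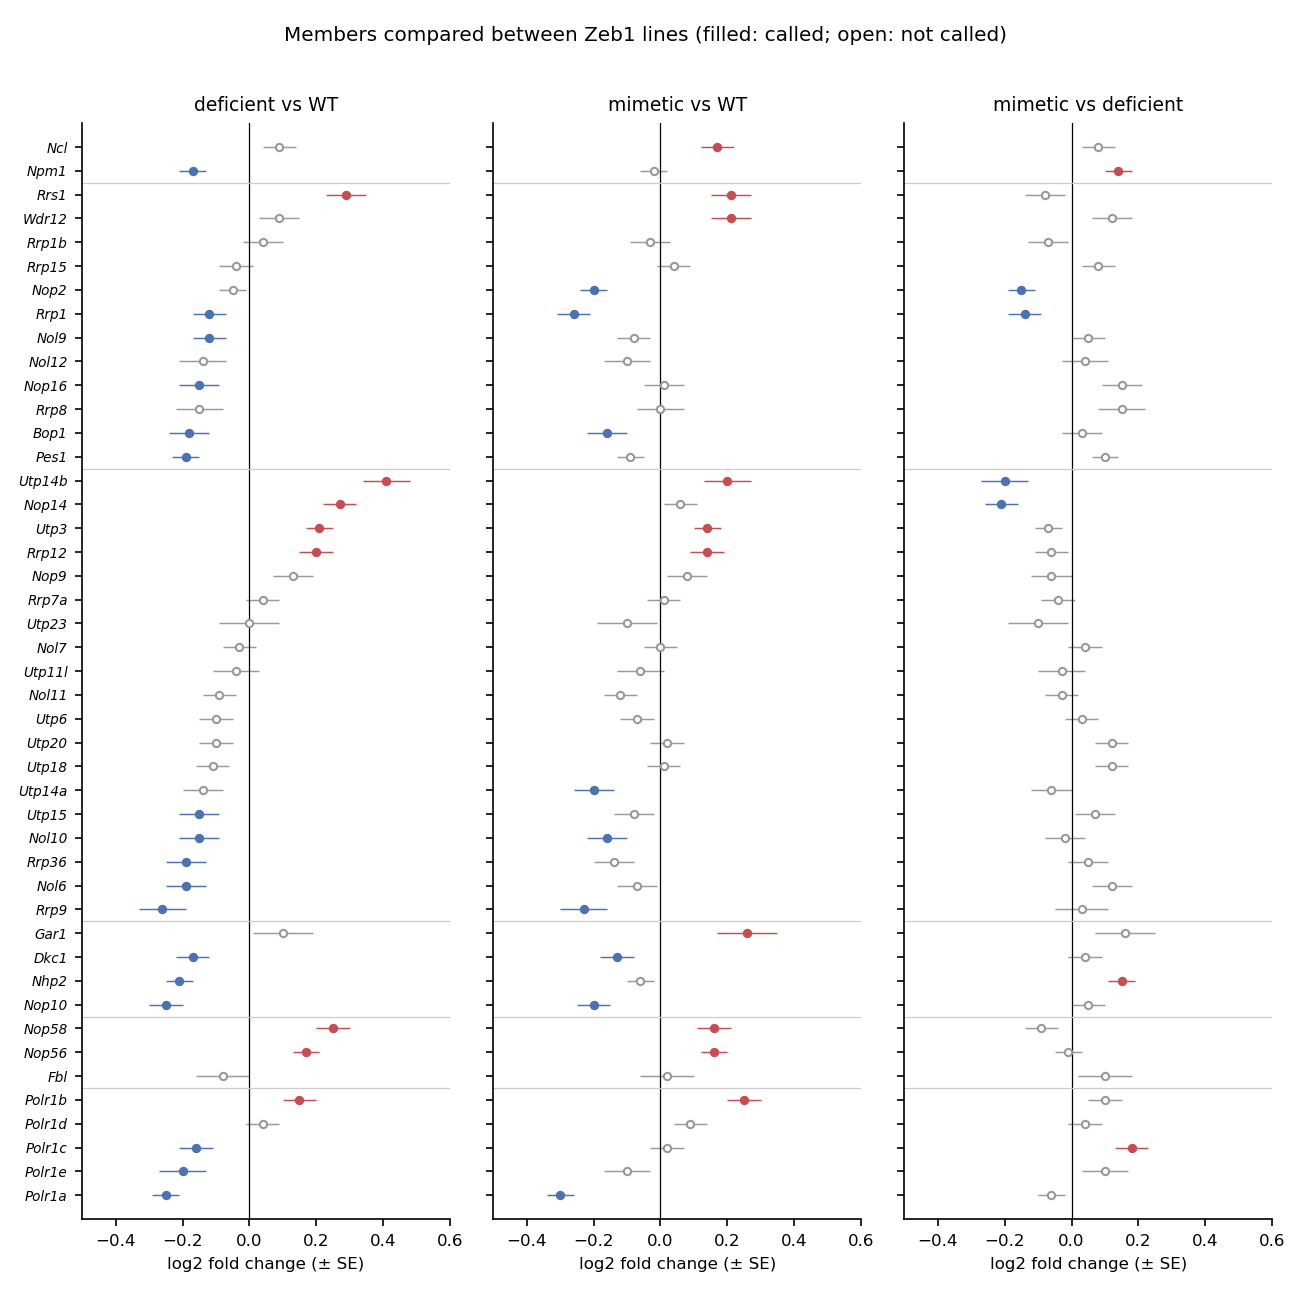
Log2 differences between Zeb1 lines, with standard errors, for the 45 genes without Nol3, Nol4, Nol4l and Nol8, 1 panel per pair of lines, with filled points for genes called higher (red) or lower (blue) and open points for those not called. Mimetic against deficient values lie between -0.21 and 0.18, mimetic against WT values between -0.30 and 0.26, and deficient against WT values between -0.26 and 0.41.

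Ribosome factors whose names the rule did not take were listed in the same way. Of 38 other small-subunit factors, 22 were higher and 8 lower than the vector in the WT line, 19 and 6 in the deficient line, and 21 and 6 in the mimetic line, with medians of 0.20, 0.14 and 0.18. The shares higher and lower were 57.9% and 21.1%, 50% and 15.8%, and 55.3% and 15.8%. Of 52 other large-subunit factors, 28 were higher and 5 lower than the vector in the WT line, 29 and 6 in the deficient line, and 29 and 7 in the mimetic line, with medians of 0.14, 0.15 and 0.15. Their shares were 53.8% and 9.62%, 55.8% and 11.5%, and 55.8% and 13.5%. All genes tested gave 31% and 33.6%, 28.4% and 29.8%, and 28.6% and 30.9% in the same order. Rcl1, a processome protein, differed from the vector by 0.85, 0.53 and 0.53 in the WT, deficient and mimetic lines, and Heatr1, a t-UTP protein, by 0.47, 0.49 and 0.57. Spata5, an ATPase that recycles large-subunit factors, differed by 0.26, 0.62 and 0.62, and Gnl3, a nucleolar GTPase, by 0.41, 0.59 and 0.74. All of these were called in each line.

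Of 14 genes for assembly of the guide RNA particles, 7 were higher and 1 lower than the vector in the WT line, 4 and 4 in the deficient line, and 4 and 0 in the mimetic line, with medians of 0.16, -0.01 and 0.02. The lower count of 0 was also 0 at an unadjusted p under 0.05 in edgeR and 0 by DESeq2. In the WT line 50% of the 14 were higher and 7.14% lower, against 31% and 33.6% of all genes tested. The deficient line had 28.6% and 28.6% (all genes 28.4% and 29.8%), and the mimetic line 28.6% and 0% (all genes 28.6% and 30.9%). Nolc1, a chaperone of these particles, differed by 0.43, 0.27 and 0.21, and the ATPase gene Ruvbl1 by 0.38, 0.20 and 0.18, and both were called in each line. Of 28 genes of the RNA exosome and RNase MRP, which trim and cut precursors, 13 were higher and 7 lower than the vector in the WT line, 12 and 7 in the deficient line, and 17 and 4 in the mimetic line, with medians of 0.14, 0.11 and 0.19. Their shares higher and lower were 46.4% and 25%, 42.9% and 25%, and 60.7% and 14.3%, beside the same shares of all genes. Exosc1, a cap subunit of the exosome, differed by 0.70, 0.63 and 0.66, called in each line. Dis3, a catalytic subunit of the same complex, differed by -0.37, 0.15 and 0.11, so that it was lower in the WT line and higher in the deficient line. Its call in the mimetic line was lost on leaving out vector replicate 1, vector replicate 2, mimetic replicate 1 or mimetic replicate 2 (adjusted p = 0.111, 0.0821, 0.131 and 0.0731), and with only the 2 lines compared in the fit (adjusted p = 0.0561).

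Factors that recruit or regulate RNA polymerase I were listed together with the 3 subunits under older names, 19 genes in all, and those 3 subunits are among the genes called higher in each line. Of the 19, 5 were higher and 10 lower than the vector in the WT line, 7 and 7 in the deficient line, and 5 and 8 in the mimetic line, with medians of -0.11, -0.04 and -0.04. As shares, 26.3% were higher and 52.6% lower in the WT line (all genes 31% and 33.6%), 36.8% and 36.8% in the deficient line (all genes 28.4% and 29.8%), and 26.3% and 42.1% in the mimetic line (all genes 28.6% and 30.9%). These shares include the 3 subunits. Without them the share higher would be smaller and the share lower larger in each line. The difference between this list and the 49 genes was not tested. Ubtf, which opens ribosomal DNA for transcription, differed by -0.10, -0.01 and 0.08, and its one call, lower in the WT line, was lost on leaving out vector replicate 3, WT replicate 1, WT replicate 2 or WT replicate 3 (adjusted p = 0.124, 0.101, 0.114 and 0.0651), and with RLE size factors, with library size alone as the scaling and with DESeq2 (adjusted p = 0.0721, 0.0771 and 0.0654). Rrn3, the factor that couples the polymerase to the promoter, differed by -0.06, -0.02 and -0.04 and was called in none. Ncor1, a corepressor counted in this list though not specific to RNA polymerase I, was lower in each line (-0.58, -0.75 and -0.68). Taf1d, a subunit of the selectivity factor, was lower in the WT line and higher in the other two (-0.21, 0.21 and 0.43). Of 21 genes of RNA polymerase III, 4 were higher and 6 lower than the vector in the WT line, 7 and 6 in the deficient line, and 8 and 5 in the mimetic line, with medians of -0.01, 0.01 and 0.09. As shares these were 19% and 28.6%, 33.3% and 28.6%, and 38.1% and 23.8%, beside the shares of all genes given above. The initiation factors of RNA polymerase III Bdp1 (-0.56, -0.55 and -0.61) and Gtf3c1 (-0.31, -0.44 and -0.43) were lower in each line.

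Myc, a known activator of ribosome biogenesis genes, was at 247, 226 and 245 CPM in the vector line, 208, 198 and 200.3 in the WT line, 258, 269.9 and 323 in the deficient line and 228, 239 and 264 in the mimetic line. Its difference from the vector was -0.25 ± 0.07 (SE, adjusted p = 0.00323) in the WT line, 0.24 ± 0.07 (SE, adjusted p = 0.00375) in the deficient line and 0.03 ± 0.07 (SE, adjusted p = 0.759) in the mimetic line. Of 11 genes of the MYC network, 2 were higher and 4 lower than the vector in the WT line, 3 and 3 in the deficient line, and 5 and 1 in the mimetic line, with medians of 0.05, -0.00 and 0.03. In the WT line 18.2% were higher and 36.4% lower, against 31% and 33.6% of all genes tested. The deficient line had 27.3% and 27.3% (all genes 28.4% and 29.8%), and the mimetic line 45.5% and 9.09% (all genes 28.6% and 30.9%). Mxd1, a MAX partner that opposes MYC, was lower in each line (-1.75, -0.98 and -1.39). Mycl, a paralog of Myc at a low level of 1.95 ± 0.25 CPM in the vector line, differed by -1.92, 0.69 and 0.66, and its mimetic call was lost on leaving out mimetic replicate 1 (adjusted p = 0.0606).

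Of 14 genes of the nucleolar stress and p53 response, in which free ribosomal proteins restrain Mdm2, 5 were higher and 5 lower than the vector in the WT line, 7 and 2 in the deficient line, and 5 and 3 in the mimetic line, with medians of -0.07, 0.23 and -0.01. In the WT line 35.7% were higher and 35.7% lower, against 31% and 33.6% of all genes tested. The deficient line had 50% and 14.3% (all genes 28.4% and 29.8%), and the mimetic line 35.7% and 21.4% (all genes 28.6% and 30.9%). The p53 target Cdkn1a was at 11.7, 12.9 and 14.2 CPM in the vector line, 8.98, 8.40 and 8.83 in the WT line, 18.9, 20.6 and 20.8 in the deficient line and 7.38, 7.47 and 8.11 in the mimetic line. The deficient libraries were the highest, and the WT and mimetic libraries were below the vector libraries. The Cdkn1a difference was -0.57 ± 0.10 (SE, adjusted p = 3.26e-05) in the WT line, 0.63 ± 0.09 (SE, adjusted p = 5.84e-06) in the deficient line and -0.76 ± 0.10 (SE, adjusted p = 1.58e-06) in the mimetic line. Rps27l, another p53 target, was higher in each line (0.74, 0.39 and 0.64).

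**Figure D5:**
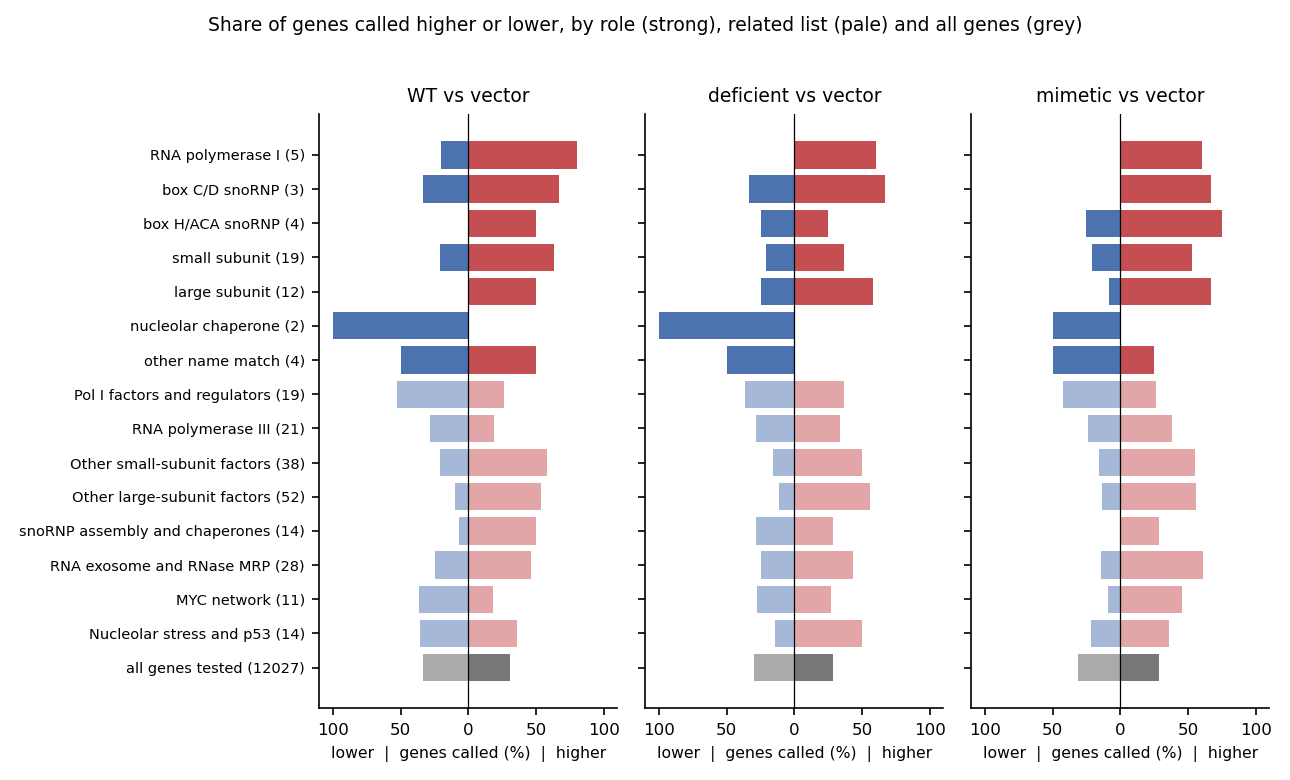
Percent of genes called higher (right, red) and lower (left, blue) than the vector line, by role of the 49 genes (strong colours), related list (pale) and all genes tested (grey), with the number of genes in parentheses, 1 panel per Zeb1 line. Among small-subunit genes 63.2%, 36.8% and 52.6% were higher in the WT, deficient and mimetic lines, where all genes tested reach 31%, 28.4% and 28.6%.

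Promoters of the genes were searched for 2 short motifs, since MYC binds CACGTG and ZEB1 binds CAGGTG. Sequences were the 250 bases before the annotated start of each gene in RefSeq (GRCm38.p6, the build also called mm10), and both strands were searched. A promoter was found for 38 of the 49 genes. The genes without one were Bop1, Fbl, Nol3, Nol4, Nol6, Npm1, Rrp12, Rrs1, Utp11l, Utp23 and Utp6. Each gene was counted once, with the motif present if any of its windows held it. CACGTG, which reads the same on both strands, was present in 5 of 38 (13.2%), namely Nol11, Nop2, Rrp7a, Utp14b and Utp18. It was present in 9.79% of 9241 tested genes and 6.86% of all 27025 genes that had a promoter sequence. CAGGTG, or its reverse complement on the other strand, was present in 2 of 38 (5.26%), Nol9 and Polr1d. The shares were 18.3% of tested genes and 19.4% of all genes that had a promoter sequence. A match describes the letters in this window and is not evidence of binding. Nop2 is shown as the highest above the vector in the WT line among the 49 genes without Nol3, Nol4, Nol4l and Nol8. Rrp7a and Utp14b are shown as genes with the same motif that were lower, and Nol9 and Polr1d as the genes with CAGGTG. The windows are chr6:125131633-125131882 on the plus strand, chr15:83122802-83123051 on the minus strand, chr1:78658190-78658439 on the plus strand, chr4:152039071-152039320 on the plus strand and chr5:147077096-147077345 on the plus strand. Each is written 5′ to 3′ on the strand of its gene, and capitals mark the motif. In GENCODE M21, the annotation used for the gene coordinates, Polr1d starts at 147077050 and Utp14b at 78658038. By that annotation the windows of Polr1d and Utp14b lie inside the gene and not before it.
Nop2: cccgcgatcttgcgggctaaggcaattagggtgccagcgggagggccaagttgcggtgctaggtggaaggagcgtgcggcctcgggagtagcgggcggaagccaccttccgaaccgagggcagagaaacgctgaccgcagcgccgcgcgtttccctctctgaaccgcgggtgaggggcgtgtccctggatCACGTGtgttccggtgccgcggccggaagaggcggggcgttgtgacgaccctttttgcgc
Rrp7a: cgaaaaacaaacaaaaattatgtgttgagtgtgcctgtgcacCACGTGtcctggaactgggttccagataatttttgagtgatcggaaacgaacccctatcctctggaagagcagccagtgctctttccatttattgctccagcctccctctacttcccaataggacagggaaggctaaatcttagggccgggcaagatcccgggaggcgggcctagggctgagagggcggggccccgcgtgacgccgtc
Utp14b: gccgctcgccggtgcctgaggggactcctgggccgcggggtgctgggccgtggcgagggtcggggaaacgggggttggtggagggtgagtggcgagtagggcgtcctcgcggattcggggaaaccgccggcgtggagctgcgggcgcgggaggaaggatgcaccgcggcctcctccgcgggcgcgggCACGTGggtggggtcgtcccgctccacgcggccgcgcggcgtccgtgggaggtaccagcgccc
Nol9: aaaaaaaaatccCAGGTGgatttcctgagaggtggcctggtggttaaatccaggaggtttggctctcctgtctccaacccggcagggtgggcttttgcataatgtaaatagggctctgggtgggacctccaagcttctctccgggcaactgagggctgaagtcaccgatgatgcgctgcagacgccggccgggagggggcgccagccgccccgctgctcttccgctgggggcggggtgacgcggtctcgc
Polr1d: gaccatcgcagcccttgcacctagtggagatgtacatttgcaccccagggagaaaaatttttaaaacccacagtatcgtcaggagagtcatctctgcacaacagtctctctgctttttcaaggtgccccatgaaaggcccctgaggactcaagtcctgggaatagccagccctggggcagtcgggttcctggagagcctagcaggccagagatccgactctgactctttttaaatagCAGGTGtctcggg
The genes with CACGTG went both ways against the vector. Nop2 was higher in each line (0.70, 0.65 and 0.50), and Rrp7a was lower in each (-0.20, -0.16 and -0.20). Utp14b was lower in the WT line (-0.57) and the mimetic line (-0.37), while Nol11 (0.20) and Utp18 (0.15) were called higher in the WT line. Nol9 (0.40, 0.27 and 0.32) and Polr1d (0.23, 0.27 and 0.31), with CAGGTG, were called higher in each line.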

How the data were processed

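RNA from 12 samples was measured by QuantSeq 3′ sequencing, per the labels' protocols. The values used are raw read counts per gene, deposited by the authors as 1 table of 12208 genes. The submitters' processing notes name STAR and mm10. Versions, counting tool, strand setting and gene models were not stated in the sources used. The smallest count in the table was 1, so genes with 0 in any library were not analysed here.

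Testing used edgeR 4.0.16 and R 4.3.3. The default expression filter removed 181 genes and left 12027, TMM scaling was applied, and 1 quasi-likelihood model over the 4 lines gave all 6 comparisons, with Benjamini-Hochberg adjustment over all genes tested and a threshold of 0.05. Each standard error was derived from the edgeR test, as the absolute log2 difference divided by the square root of its quasi-likelihood F statistic. The alternatives were RLE or library-size scaling, no filter, a filter of 5 CPM in 3 libraries, a replicate block, DESeq2 1.42.0, a fit of only the 2 lines compared, and leaving out each library. The genes and lists were chosen with earlier results of these data known. Genes given in full were the polymerase subunits, Fbl, Dkc1, Ncl, Npm1, and in the other roles the 3 genes with the smallest p for any difference among the lines. Utp14a and Utp14b were also given in full, outside that rule. From each of 8 related lists the 2 smallest were named, with Myc, Ubtf and Rrn3. Other members are given by counts, ranges and single values. Annotation was GENCODE M21, in which all 49 genes were matched, 48 under the same symbol. In the last 500 bases, 10 genes overlapped an exon of another gene on the opposite strand and 0 on the same strand. Overlap with introns of other genes was not searched.

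The test was tested on simulated data for the WT and vector comparison. Over the 11973 genes of that step it called 95.5% of genes changed by 2-fold, 75.8% at 1.5-fold and 52.9% at 1.25-fold, and 0.0764% of unchanged genes. Only 200 genes were changed in the simulation, whereas 64.6% of genes tested were called in the measured comparison. The adjusted p depends on that share, so these rates need not hold for the measured data. Replicates of a line differed by more than counting error, with a mean chi-square of 2.96 to 23.6 per gene, so no library was a copy of another.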

Additional observations from a re-analysis of the deposited data

Results flagged for a closer look

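Nol4 differed between Zeb1 lines in the direction of its change from the vector, by direct tests of the difference between lines. It was 1.13 on the log2 scale above the vector in the WT line and differed by -0.41 in the deficient line, and the deficient minus WT difference was -1.54 (edgeR, adjusted p = 1.2e-09). In the mimetic line it differed from the vector by -0.70, and the mimetic minus WT difference was -1.83 (adjusted p = 3.13e-10). The 3 WT libraries were above, and the other 6 Zeb1 libraries below, the 3 vector libraries.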

How the results depend on the processing

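Of 163 calls over the 49 genes and 6 comparisons, 117 held in every alternative run and 46 were lost when 1 or more single libraries were left out. None turned to the opposite direction with a call, and 44 of 3816 values that were not called under either setting changed sign. With library size alone as the scaling, 29 genes were higher and 8 lower in the WT line, 26 and 11 in the deficient line and 32 and 8 in the mimetic line, all against the vector. The shares of all genes tested moved too, to 32.4% higher and 32.2% lower in the WT line. They were 32.7% and 26.2% in the deficient line and 36% and 25% in the mimetic line. That scaling moved the median of all genes by at most 0.07. Under it, mimetic against deficient gave 8 higher and 2 lower genes in place of 4 and 4, and mimetic against WT gave 5 lower in place of 10. Deficient against WT gave 13 lower genes in place of 18 under that scaling, and 13 with the filter of 5 CPM. The cause was not tested. When each library was left out in turn, lower genes in the WT line against the vector ranged from 6 to 8. Mimetic against deficient ranged from 1 to 4 higher and 2 to 3 lower, mimetic against WT from 5 to 10 higher and 6 to 9 lower, and deficient against WT from 11 to 17 lower. Replicate numbers did not pair the libraries: deviations of same-numbered libraries correlated at -0.0847 to 0.132 over 18 pairs, 1 of them over 0.1, and 4 of 12 libraries correlated best with their own number. With the replicate block, lower genes in the mimetic line against the vector went from 9 to 10, and the other counts of higher and lower genes were as before. Any difference among the 4 lines was called for 44 genes with the block and 45 without. The smallest count of these genes was 65, in Nol3, and Nol3 and Nol4 rest on the lowest counts.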
